A study of Homo sapiens with 60 samples.

Results

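Menthae Herba is the dried aerial part of mint, used as a herbal medicine. The comparison described here is of HepG2 cells given its water extract at 500 µg/mL with HepG2 cells given vehicle, over every gene of the deposited count table. It rests on 6 of the 60 libraries of the series, 3 per group, picked by their labels. That choice, the gene lists and the tests were made with earlier results of these data known. HepG2 is a human hepatocellular carcinoma line (ATCC HB-8065), a single line that keeps many liver functions and divides without limit, so it stands for 1 tumour and not for normal liver. All cells were exposed for 24 h. The extract was made by boiling the dried plant in water under reflux for 3 h, filtering it and freeze-drying it. Vehicle was DMSO, given as 0.1% in the sample labels and as 2% in the series' design text, so the solvent load of the control is uncertain. The sample labels give no DMSO percentage for the extract libraries, so whether the solvent differed between the groups is uncertain too. The extract was also given at 100 and 20 µg/mL (3 libraries each), and another herb, Saposhnikoviae Radix, was given as a water extract at the same 500 µg/mL (3 libraries). Those 9 libraries serve to place the genes that differed at 500 µg/mL, and with the other replicated groups of the series they also entered the shared estimate of spread behind every test. Nothing in the labels says whether replicates were separate cultures, so p-values measure the spread between these libraries, which may be technical.

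The 6 libraries held 24124250 to 30128039 estimated counts. Hepatoma marker genes (albumin, apolipoproteins, fetal and clotting proteins) summed to 47690 to 52080 CPM (counts scaled to a common library size) in vehicle and to 46970 to 48000 CPM at 500 µg/mL, which matches the labelled liver line. Vehicle replicate 1 stood apart from the other vehicle libraries. The chi-square of its counts against replicates 2 and 3, divided by its degrees of freedom, was 17.3 and 14.2, where replicates 2 and 3 gave 3.21 between them, and 16.42% of its counts came from mitochondrial genes against 13.02% and 13.53%. Such gaps were not confined to vehicle. At 500 µg/mL, replicate 2 gave 16.07 and 9.337 against replicates 1 and 3, which gave 5.713 between them. Its mitochondrial share was 13.89% against 10.4% and 12.06%. At 20 µg/mL, replicate 3 gave 16.74 and 13.03 against replicates 1 and 2, which gave 3.82 between them. Where leaving out vehicle replicate 1 ended the call of a gene described below, the value without it is given beside that gene. Values without other libraries are given for some genes only. The submitters' sample codes begin otherwise for the vehicle libraries than for both extracts described here. What that part of the code stands for is not stated, so whatever it marks cannot be told apart from treatment in the comparisons with vehicle.

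Several systems of the hepatocyte come up repeatedly in these data. In the liver, insulin acts through PI3K and AKT to keep FOXO transcription factors out of the nucleus, and FOXO factors otherwise drive genes such as IGFBP1 and the enzymes of glucose output. Hepcidin, the product of HAMP, is the liver hormone that limits iron export, and its gene is switched on by BMP signals through SMAD proteins, which also switch on the ID genes. Metallothioneins are small cysteine-rich proteins that bind zinc and copper, and their genes follow free zinc through the factor MTF1. HIF factors, which are stabilised when oxygen sensing by the EGLN enzymes slows, drive glucose uptake, glycolysis and CA9.

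A large share of the expressed genes differed in level between the 500 µg/mL and the vehicle libraries, mostly by small steps. Of 16644 genes tested, 6623 (39.8%) had an adjusted p under 0.05, of which 3291 (19.8%) were higher and 3332 (20%) lower than in vehicle. The shares of 19.8% and 20% are the background for the list counts of called genes at 500 µg/mL against vehicle given below. The median log2 fold change over all tested genes was 0.00, and 90% of them lay between -0.63 and 0.84. Among the called genes the median absolute log2 fold change was 0.36, and 75.3% of them differed by less than 1.5-fold. A test against a 1.5-fold difference called 506 genes (3.04%), with 371 higher (2.23%) and 135 lower (0.811%), so the larger changes were mainly rises. The shares of 2.23% and 0.811% are the background for the list counts beyond 1.5-fold given below. Called genes that differed at least 2-fold numbered 617 (3.71%), and for 49.8% of tested genes the libraries of the groups did not overlap. Without vehicle replicate 1 the test against no change called 5703 genes. In bulk RNA, a change in the share of cells in some state and a change in RNA per cell cannot be told apart.

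**Figure D1:**
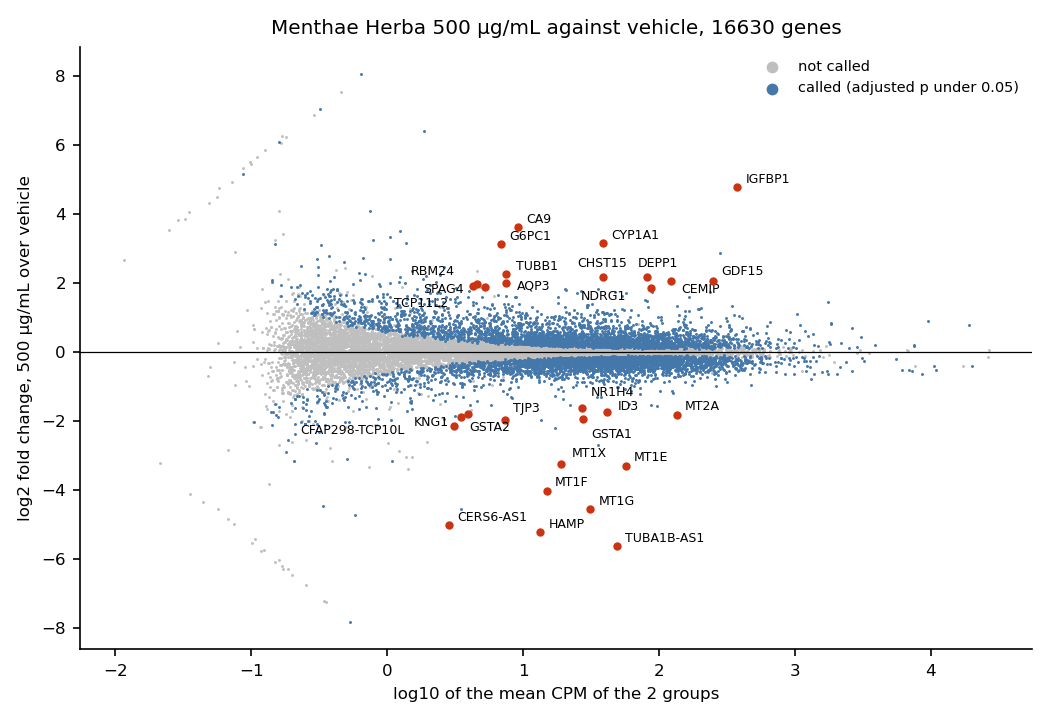
Log2 fold change of 500 µg/mL over vehicle (vertical axis) against the log10 of the mean CPM of both groups (horizontal axis) for the genes tested that had a count in either group, each point a gene, coloured by whether it was called. Red points with labels mark named genes among the largest rises and falls; IGFBP1 at 4.78 is the highest labelled rise and TUBA1B-AS1 at -5.63, with scattered libraries, the lowest labelled fall.

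Among the named genes the largest rise was that of IGFBP1, a secreted protein that binds insulin-like growth factors and is held down by insulin. Its level was 23.2, 26.0 and 30.4 CPM in the 3 vehicle libraries and 692, 773 and 718 CPM at 500 µg/mL. Every extract library was far above every vehicle library. The means of 26.6 ± 3.65 and 728 ± 41.3 CPM (SD, n = 3 each) differed 27.4-fold, a log2 fold change of 4.78 ± 0.25 (SE; adjusted p = 4.09e-19 by edgeR's quasi-likelihood test). The gene lies at chr7:45888357-45893668 (GRCh38, GENCODE v29). It was already higher at the lower doses, with means of 71.2 ± 5.39 CPM at 20 µg/mL and 119 ± 10.6 CPM at 100 µg/mL. Against 20 µg/mL, a comparison that uses no vehicle library, the log2 fold change at 500 µg/mL was 3.35.

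G6PC1, the catalytic subunit of glucose-6-phosphatase that releases free glucose, was at 1.39, 1.5 and 1.33 CPM in vehicle and at 12.3, 12.5 and 12.1 CPM at 500 µg/mL. The extract libraries lay close together and far above vehicle, an 8.73-fold difference (log2 3.12 ± 0.20, adjusted p = 2.94e-18). Its means at 20 and 100 µg/mL, 3.48 ± 0.349 and 3.5 ± 0.266 CPM, were alike, so within the extract doses the rise lay above 100 µg/mL. With Saposhnikoviae Radix at 500 µg/mL the mean was 3.01 ± 0.373 CPM. The gap between vehicle and 20 µg/mL cannot be told apart from whatever the differing start of the sample codes marks. PCK1, which makes phosphoenolpyruvate for new glucose, was at 2.35, 2.60 and 2.19 CPM in vehicle and at 5.33, 5.59 and 5.28 CPM with extract. No extract library of PCK1 overlapped vehicle, and the log2 fold change was 1.18 ± 0.12. PPARGC1A, a coactivator of the same programme, rose by a log2 fold change of 0.74 ± 0.08, and GPT2, which turns alanine into pyruvate, by 0.65 ± 0.05. Of 14 gluconeogenesis genes tested, 7 were higher and 3 lower, with a median log2 fold change of 0.42.

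Of 21 tested genes of insulin signalling and FOXO targets, 11 were higher and 3 lower (median 0.24). The receptor itself, INSR, was at 80.3, 82.0 and 78.7 CPM in vehicle and at 119, 111 and 118 CPM at 500 µg/mL, a log2 fold change of 0.53 ± 0.07 with no overlap of libraries. TXNIP, which limits glucose uptake, rose from 43.9, 44.7 and 45.8 CPM to 86.7, 98.9 and 99.2 CPM (1.08 ± 0.07). FOXO1, the factor that gives the list its name, was lower, at 30.9, 33.0 and 36.1 CPM with extract against 47.3, 39.3 and 42.3 CPM in vehicle (-0.37 ± 0.08). DEPP1, known as a FOXO target in other cells, was at 26.7, 31.3 and 30.8 CPM in vehicle and at 119, 141 and 137 CPM with extract. It rose 4.47-fold at 500 µg/mL, while its libraries at 20 µg/mL (24.2 to 32.1 CPM) overlapped vehicle.

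Other IGF-binding proteins rose with IGFBP1: of 10 tested genes of the IGF system 7 were higher and none lower (median 0.58). IGFBP3, the main carrier of IGF in blood, was at 0.214, 0.366 and 0.257 CPM in vehicle and at 2.84, 2.42 and 2.19 CPM at 500 µg/mL. That is a rise from near the detection limit (3 counts are about 0.1 CPM), seen in every extract library, with a log2 fold change of 3.14 ± 0.34. Unlike IGFBP1 it was not called at 20 or 100 µg/mL, where its libraries spanned 0.113 to 0.472 CPM, and 500 exceeded 20 µg/mL by 3.5 (log2). IGFBP6 and IGFBP2 rose by 0.93 ± 0.14 and 0.84 ± 0.16. Glycogen genes went one way as well: 9 of 17 tested were higher and none lower (median 0.21). Among them were PPP1R3G, a subunit that directs phosphatase to glycogen (1.14 ± 0.13), STBD1, which tethers glycogen to membranes (0.97 ± 0.16), and the branching enzyme GBE1 (0.89 ± 0.08).

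Genes that HIF factors are known to drive rose together. CA9, a cell-surface carbonic anhydrase widely used as a hypoxia marker, was at 0.927, 1.06 and 2.19 CPM in vehicle and at 16.2, 17.3 and 17.1 CPM at 500 µg/mL. All extract libraries lay above all vehicle libraries, although vehicle replicate 3 was clearly above the other vehicle libraries. The difference was 12.1-fold (log2 3.63 ± 0.47, adjusted p = 3.38e-08; chr9:35673856-35681159, GRCh38). The dose series of CA9 had no single direction: the mean was 6.04 ± 0.672 CPM at 20 µg/mL, which was called against vehicle, and 3.58 ± 0.273 CPM at 100 µg/mL, which was not (adjusted p = 0.0899). The 250 bases before its RefSeq start site (chr9:35673678-35673927, GRCh38.p14, plus strand) hold 1 match, in capitals, to ACGTG, the core that HIF factors bind, read on either strand. The sequence is shown because CA9 had the largest fold in the group among genes above 1 CPM in vehicle.

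CA9: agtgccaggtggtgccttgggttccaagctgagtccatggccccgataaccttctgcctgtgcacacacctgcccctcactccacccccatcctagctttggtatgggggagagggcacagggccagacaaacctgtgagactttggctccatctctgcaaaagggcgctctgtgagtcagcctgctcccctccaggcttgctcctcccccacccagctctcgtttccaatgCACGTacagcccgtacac

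ACGTG on either strand was in 17 of the 28 promoter windows found for this list (60.7%) and in 18.5% of all 35116 RefSeq windows of that length. These matches describe the sequence and say nothing on binding in these cells.

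Of 30 HIF targets outside glycolysis, 26 were higher and 1 lower, with a median log2 fold change of 0.76, and 14 were higher by more than 1.5-fold. NDRG1, a stress-responsive differentiation gene, went from 36.4, 34.6 and 42.6 CPM to 133, 143 and 136 CPM (1.86 ± 0.11), with no overlap. EGLN3, an oxygen-sensing hydroxylase that HIF itself induces, rose by 1.53 ± 0.23 and EGLN1 by 0.62 ± 0.06. PPFIA4 was at 0.0713, 0.122 and 0.0429 CPM in vehicle, about 1 to 3 reads a library, and at 1.49, 1.5 and 1.25 CPM with extract.

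The mRNAs of the HIF subunits did not rise. HIF1A was at 279, 226 and 239 CPM in vehicle and at 222, 224 and 230 CPM with extract, so the groups overlapped. Its log2 fold change of -0.14 was called (adjusted p = 0.026), but the call was lost with only the 6 libraries in the fit (adjusted p = 0.0982), without a filter on low counts, without either of extract replicates 1 and 2, and without vehicle replicate 1, where the value was -0.04. EPAS1, which encodes HIF-2 alpha, was lower in every extract library (-0.30 ± 0.05). ARNT, their shared partner, was called lower at -0.15 ± 0.06 and lost that call in 7 of the 12 alternative analyses, without vehicle replicate 1 among them (-0.11, adjusted p = 0.213).

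Glucose handling moved in the same direction as the HIF list. SLC2A1, the glucose transporter GLUT1, was at 622, 680 and 681 CPM in vehicle and at 1388, 1437 and 1444 CPM at 500 µg/mL. Its groups were far apart relative to their spread (1.11 ± 0.05), and the means at 20 and 100 µg/mL were 756 ± 11.03 and 912 ± 12.97 CPM. Of 9 glucose and lactate transporters tested 8 were higher, and of 24 glycolytic enzymes 19 were higher, with none lower in either list (medians 0.43 and 0.61). HK1, which traps glucose in the cell, rose from 1.11, 1.26 and 1.03 CPM to 3.74, 3.59 and 3.87 CPM. PFKFB3 and PFKFB4, which make the activator of phosphofructokinase, rose by 1.38 ± 0.11 and 1.3 ± 0.10. PDK1, the kinase that keeps pyruvate out of mitochondria, rose by 1.10 ± 0.10.

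Among the named genes with close replicates the largest fall was that of HAMP, the hepcidin gene. Its level was 24.5, 26.5 and 27.1 CPM in vehicle and 0.900, 0.501 and 0.665 CPM at 500 µg/mL. Every extract library was far below vehicle, 37.8-fold on the group means (log2 fold change -5.20 ± 0.21, adjusted p = 2.03e-24; chr19:35280716-35285143, GRCh38). At 100 µg/mL HAMP was at 21.2, 20.3 and 20.2 CPM, a log2 difference of -0.34 that missed the threshold (adjusted p = 0.0529), and at 20 µg/mL the libraries overlapped vehicle. The fall at 500 µg/mL was as large against 20 µg/mL (-5.18). The promoter window of HAMP is shown because of that fall (chr19:35282278-35282527, GRCh38.p14, plus strand). Capitals mark its match to GGCGCC, an element that SMAD complexes bind.

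HAMP: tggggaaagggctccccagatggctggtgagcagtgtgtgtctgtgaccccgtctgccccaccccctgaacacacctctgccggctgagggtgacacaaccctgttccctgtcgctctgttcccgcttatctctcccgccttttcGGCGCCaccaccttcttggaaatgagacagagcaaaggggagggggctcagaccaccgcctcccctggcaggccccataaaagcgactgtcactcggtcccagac

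GGCGCC was in 6 of 28 windows of the hepcidin and BMP list (21.4%) and in 16.4% of all windows, so the list was close to the background in this respect.

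Most other genes of BMP signalling fell with HAMP. Of 20 tested 13 were lower and 2 higher (median -0.38), and 7 were lower by more than 1.5-fold. ID1, a dominant-negative helix-loop-helix factor and a classical BMP target, was at 134, 151 and 153 CPM in vehicle and at 50.5, 49.2 and 47.4 CPM at 500 µg/mL. The extract libraries agreed to within a few CPM, and the log2 fold change was -1.57 ± 0.09. At the lower doses ID1 was on the other side of vehicle, with means of 182 ± 9.22 CPM at 20 µg/mL (0.32, called) and 186 ± 12.1 CPM at 100 µg/mL (0.35, called). ID3 went from 56.9, 67.7 and 66.1 CPM to 19.3, 19.5 and 18.9 CPM (-1.72 ± 0.12). ID4, a related member, was at 1.53, 1.63 and 1.97 CPM and at 0.485, 0.542 and 0.274 CPM (-1.96 ± 0.27). At 100 µg/mL 3 of the 20 genes were higher and 2 lower, and at 20 µg/mL 1 was higher and 1 lower.

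Genes of cellular iron handling had no common direction. Of 15 tested 6 were higher and 3 lower (median 0.01), beside 19.8% and 20% of all genes. Ceruloplasmin (CP), the copper ferroxidase, rose from 112, 90.6 and 100 CPM to 225, 232 and 234 CPM (1.19 ± 0.10). The transferrin receptor TFRC, which brings iron in, rose by 0.67 ± 0.07 and the iron exporter SLC40A1 by 0.37 ± 0.04.

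All 7 tested metallothionein genes were lower at 500 µg/mL, with a median log2 fold change of -3.29, and 6 of them by more than 1.5-fold. MT1G was at 57.5, 59.96 and 61.1 CPM in vehicle and at 2.39, 2.38 and 2.90 CPM with extract. The groups were far apart, 23.3-fold on the means (-4.54 ± 0.20, adjusted p = 2.01e-21; chr16:56666731-56668065, GRCh38). MT1F fell from 27.0, 26.9 and 30.4 CPM to 1.59, 1.79 and 1.84 CPM (16.1-fold). MT1E fell from 113, 104 and 93.8 CPM to 10.2, 10.97 and 10.8 CPM (9.73-fold), and MT1X from 37.6, 35.04 and 30.7 CPM to 3.39, 3.80 and 3.87 CPM (9.34-fold). MT1M was at 1.18, 0.854 and 1.33 CPM in vehicle and at 0.0346, 0.0417 and 0.0391 CPM with extract, about 1 read a library. MT1 genes are near-identical copies, so how reads were divided among them is uncertain, but a sum is less affected. The 11 list members together gave 455, 429 and 433 CPM in vehicle and 74.4, 83.7 and 80.2 CPM at 500 µg/mL. That sum includes MT2A, with means of 210 CPM in vehicle and 59.98 CPM at 500 µg/mL, so most of it at 500 µg/mL was MT2A.

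MT2A, the sole functional human gene of metallothionein 2, was at 216, 201 and 213 CPM in vehicle and at 56.07, 63.9 and 60 CPM at 500 µg/mL (-1.81 ± 0.17, 3.5-fold). Its dose series differed from that of MT1G. MT2A was at 132 ± 13.5 CPM with 20 µg/mL, 64.9 ± 9.12 CPM with 100 µg/mL and 59.98 ± 3.91 CPM with 500 µg/mL, so the last 2 doses gave nearly the same level. MT1G went on falling, from 39.0 ± 5.65 to 11.8 ± 0.730 and 2.55 ± 0.295 CPM. The metallothioneins were called at every dose in most members: 7 lower of 7 at 100 µg/mL and 6 lower of 7 at 20 µg/mL, with medians of -1.94 and -0.60. In those comparisons 7.04% and 3.49% of all tested genes were called lower (14% and 6.83% in either direction).

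The promoter windows of MT1X (chr16:56682220-56682469) and MT2A (chr16:56608334-56608583), both on the plus strand of GRCh38.p14, are shown because they hold repeated cores of the metal response element, the site MTF1 binds. Capitals mark matches to TGCACNC or TGCGCNC on either strand, 4 in MT1X and 7 in MT2A.

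MT1X: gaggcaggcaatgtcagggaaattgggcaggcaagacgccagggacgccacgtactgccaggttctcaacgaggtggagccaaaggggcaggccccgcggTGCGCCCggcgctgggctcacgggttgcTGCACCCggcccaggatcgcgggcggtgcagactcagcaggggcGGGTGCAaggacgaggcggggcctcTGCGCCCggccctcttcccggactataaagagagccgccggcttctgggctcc

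MT2A: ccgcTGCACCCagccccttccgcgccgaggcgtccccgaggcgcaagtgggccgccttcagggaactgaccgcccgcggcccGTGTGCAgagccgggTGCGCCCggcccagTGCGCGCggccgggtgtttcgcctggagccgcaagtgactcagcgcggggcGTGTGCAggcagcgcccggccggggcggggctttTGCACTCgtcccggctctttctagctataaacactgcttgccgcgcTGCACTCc

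Windows were found for 4 of the 11 metallothioneins (MT1B, MT1H, MT1X and MT2A), and each held the core, as did 24.8% of all windows. MTF1 itself was at 20.8, 19.6 and 19.9 CPM in vehicle and at 17.2, 19.1 and 18.6 CPM with extract and was not called (-0.14 ± 0.07, adjusted p = 0.141).

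Zinc transporters moved beside the metallothioneins, with 11 of 19 tested higher and 2 lower (median 0.18). SLC39A10, a ZIP carrier that brings zinc into the cytosol, was at 13.5, 13.3 and 9.43 CPM in vehicle and at 41.8, 40.7 and 41.3 CPM at 500 µg/mL. The extract libraries were tight and well above vehicle (1.77 ± 0.10), and the level at 100 µg/mL, 20.3 to 20.5 CPM, lay between. SLC39A4, another ZIP importer, rose from 84.7, 96.5 and 92.5 CPM to 192, 190 and 190 CPM (1.07 ± 0.07). SLC30A1, the zinc exporter of the plasma membrane and itself an MTF1 target, fell from 94.3, 89.9 and 89.9 CPM to 60.3, 55.8 and 57.9 CPM (-0.66 ± 0.07). Thus SLC39A10 and SLC39A4 lay above vehicle and SLC30A1 below it in every library at 500 µg/mL. These genes were named for being among the largest called changes of the list. The groups did not overlap for 13 of the 19 tested members, beside 49.8% of all tested genes.

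**Figure D2:**
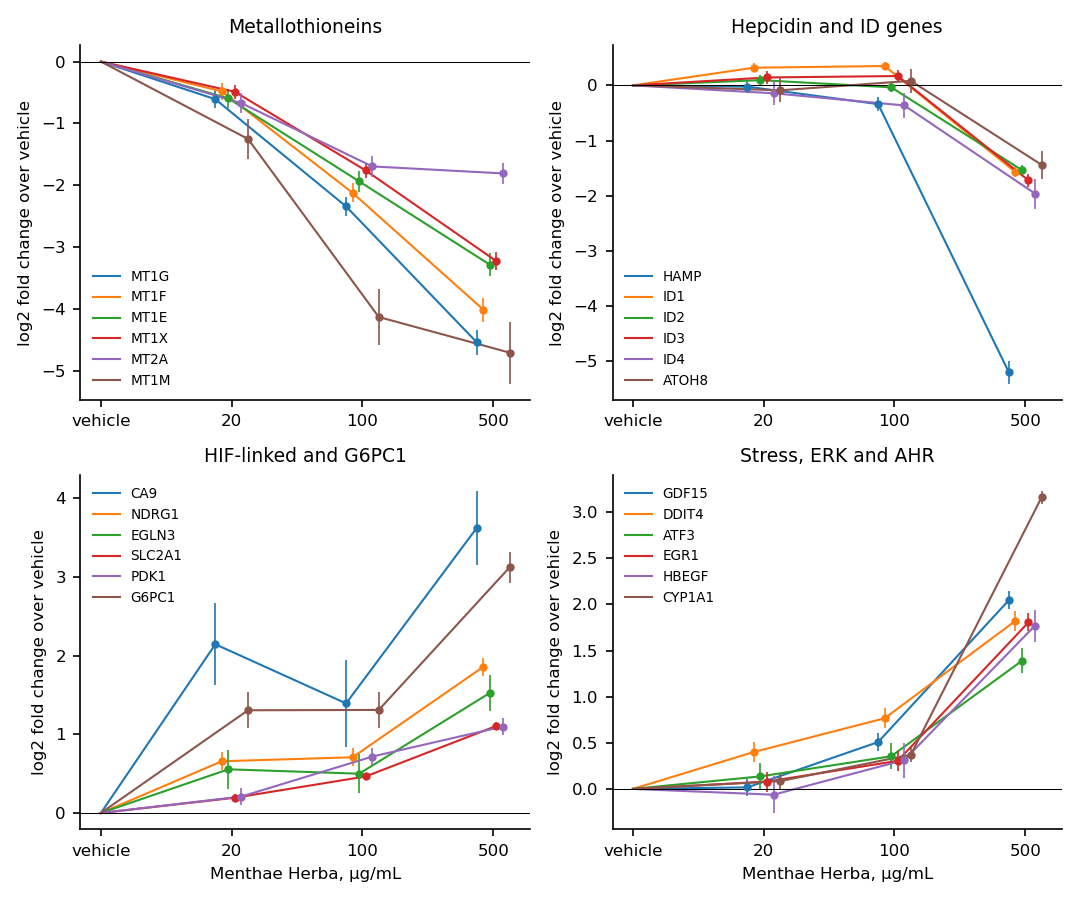
Log2 fold change over vehicle (vertical axes) at 20, 100 and 500 µg/mL of Menthae Herba (horizontal axes, equal steps and not to scale) for 24 genes in 4 groups; points are fitted values and bars are 1 SE, from fits that share the vehicle libraries. The metallothioneins fall from 20 µg/mL on, HAMP and the ID genes fall at 500 µg/mL, and CYP1A1 and EGR1 rise mainly at 500 µg/mL.

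CYP1A1, the cytochrome P450 most closely tied to the aryl hydrocarbon receptor (AHR), was at 8.49, 7.07 and 7.68 CPM in vehicle and at 65.9, 67.9 and 74.5 CPM at 500 µg/mL. The groups were well apart, 8.97-fold (3.16 ± 0.07, adjusted p = 1.98e-38; chr15:74719542-74725610, GRCh38). At 20 µg/mL its libraries (7.66 to 8.86 CPM) overlapped vehicle, and at 100 µg/mL its mean of 10.1 ± 0.739 CPM was a log2 difference of 0.37. Of 7 tested genes of the AHR list 4 were higher and 1 lower. ALDH3A1, another AHR target, was at 0.785, 0.569 and 0.472 CPM in vehicle and at 1.18, 1.33 and 1.02 CPM with extract (0.93 ± 0.27). AHR itself rose by 0.32 ± 0.06.

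Targets of NRF2, the factor of the antioxidant response, were mostly higher: 19 of 31 against 5 lower (median 0.29). AKR1B10, an aldo-keto reductase, was at 38.6, 41.7 and 42.8 CPM in vehicle and at 116, 114 and 122 CPM at 500 µg/mL (1.52 ± 0.06). SLC7A11, the cystine importer that feeds glutathione synthesis, rose from 46.7, 41.5 and 41.2 CPM to 118, 118 and 126 CPM (1.48 ± 0.08). NQO1, a quinone reductase, rose from 351, 358 and 366 CPM to 580, 580 and 585 CPM (0.70 ± 0.05). The list was not uniform: HMOX1, heme oxygenase 1, was at 54.8, 61.5 and 58.2 CPM in vehicle and lower, at 49.9, 47.6 and 45.1 CPM, with extract (-0.29 ± 0.06). The mRNA of NRF2, NFE2L2, fell from 245, 211 and 226 CPM to 142, 158 and 147 CPM (-0.61 ± 0.05), and that of its inhibitor KEAP1 rose by 0.44 ± 0.06.

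Of 23 conjugating enzymes tested 5 were higher and 3 lower (median 0.02), shares near or under the 19.8% and 20% of all genes, and the 3 that fell all did so by more than 1.5-fold. GSTA1, the main alpha-class glutathione transferase of hepatocytes, was at 44.1, 43.2 and 43.0 CPM in vehicle and at 11.2, 10.97 and 11.8 CPM at 500 µg/mL. Libraries within a group differed by about 1 CPM while the groups differed 3.84-fold (-1.94 ± 0.11), and the means at 20 and 100 µg/mL were 38.6 ± 1.76 and 29.1 ± 1.08 CPM. GSTA2 fell by 1.87 ± 0.16 on the log2 scale; it is a close copy of GSTA1, so the split of reads between them is uncertain. SULT2A1, the sulfotransferase of bile acids and DHEA, fell from 90.5, 93.1 and 90.2 CPM to 50.8, 50.1 and 51.0 CPM (-0.85 ± 0.06). Of 14 drug efflux transporters 8 were higher and 2 lower, including the canalicular pump ABCC2, which rose from 287, 259 and 277 CPM to 548, 547 and 551 CPM (1.00 ± 0.04). ABCG2, ABCC1 and ABCB1 rose by 0.82 ± 0.08, 0.51 ± 0.05 and 0.43 ± 0.06. Among 24 other P450 genes 4 were higher, led by CYP3A5 (1.04 ± 0.12), and 7 lower, among them CYP4F2 (-0.71 ± 0.13).

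NR1H4, the bile acid receptor FXR, was at 42.0, 41.6 and 39.7 CPM in vehicle and at 13.8, 12.7 and 13.6 CPM at 500 µg/mL. The groups were tight and 3.08-fold apart (-1.62 ± 0.06, adjusted p = 1.60e-27; chr12:100473708-100564413, GRCh38). NR0B2, the repressor SHP that FXR is known to induce, went the other way, from 38.8, 40.9 and 41.4 CPM to 75.3, 90.1 and 81.0 CPM (1.02 ± 0.07). BAAT, which joins bile acids to amino acids, rose by 1.07 ± 0.11, and SLC51B, a subunit of the basolateral bile acid exporter, fell by 0.83 ± 0.16 on the log2 scale. The 15 tested bile acid genes split into 5 higher and 6 lower (median -0.01), beside 19.8% and 20% of all tested genes.

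Stress genes of the ATF4 pathway, which answers amino acid shortage and protein misfolding, were higher in 15 of 21 tested genes and lower in 2 (median 0.27). GDF15, a secreted stress cytokine, was at 88.6, 102 and 103 CPM in vehicle and at 357, 442 and 414 CPM at 500 µg/mL, 4.13-fold higher with no overlap (2.05 ± 0.10). Its libraries at 20 µg/mL (93.2 to 104 CPM) overlapped vehicle. DDIT4, an inhibitor of mTORC1, rose from 15.3, 16.0 and 15.6 CPM to 60.1, 57.5 and 48.0 CPM (1.82 ± 0.11), and ATF3, a stress-induced factor, by 1.39 ± 0.13. The mRNA of ATF4 rose by 0.21 ± 0.06. Among 22 amino acid transporters 11 were higher and 3 lower, including SLC43A2 (1.23 ± 0.08) and SLC38A2 (0.88 ± 0.07). The aminoacyl-tRNA synthetases, also ATF4 targets in part, were higher in 6 and lower in 1 of 20, with a median of 0.04.

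ER chaperones split evenly, 7 higher and 7 lower of 25 (median 0.01), beside 19.8% and 20% of all tested genes. Heat shock proteins fell: 16 of 24 were lower and 1 higher (median -0.21). HSP90AA1, the inducible HSP90, went from 2037, 1911 and 1743 CPM to 1270, 1229 and 1352 CPM (-0.56 ± 0.05). HSPA1A and HSPA1B, HSP70 genes that are near-identical copies, fell by 0.67 ± 0.08 and 0.71 ± 0.09 on the log2 scale. HSF1, the factor that drives them, was not called (0.04 ± 0.06).

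Genes of cholesterol and fatty acid synthesis were mostly lower, while those of storage were mixed and those of oxidation more often higher. Of 28 genes of cholesterol synthesis and uptake 21 were lower and 2 higher (median -0.35). HMGCS1, an early enzyme of the pathway, went from 417, 382 and 357 CPM to 226, 217 and 231 CPM (-0.78 ± 0.05). SQLE, which makes squalene epoxide, fell from 386, 371 and 366 CPM to 245, 242 and 251 CPM. INSIG2, which holds SREBP factors in the ER, was one of the 2 that rose, from 33.0, 30.6 and 31.7 CPM to 74.4, 76.2 and 76.3 CPM (1.25 ± 0.07). SREBF2, the factor of the sterol genes, was not called (-0.01 ± 0.05), and SREBF1, that of fatty acid synthesis, fell by 0.61 ± 0.07 on the log2 scale.

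Of 20 genes of fatty acid synthesis 13 were lower and 1 higher (median -0.28). GPAM, the first enzyme of glycerolipid synthesis, was at 180, 167 and 167 CPM in vehicle and at 77.2, 81.2 and 78.8 CPM at 500 µg/mL (-1.12 ± 0.05). FADS2, a fatty acid desaturase, and ACSS2, which makes acetyl-CoA from acetate, fell by 0.67 ± 0.06 and 0.66 ± 0.04 on the log2 scale. Lipid droplet genes were higher in 5 and lower in 6 of 14 (median -0.01). The droplet coat PLIN2 rose from 110, 117 and 117 CPM to 261, 283 and 272 CPM (1.24 ± 0.05), and DGAT1, which makes triglyceride, fell by 0.77 ± 0.07. Among 24 PPARA targets and oxidation genes 12 were higher and 5 lower (median 0.27). VNN1, a pantetheinase, was at 1.11, 0.610 and 0.943 CPM and at 3.5, 3.17 and 4.30 CPM (2.03 ± 0.20), and CPT1A, the gate of mitochondrial fatty acid oxidation, rose from 41.8, 43.3 and 44.9 CPM to 73.8, 72.1 and 76.1 CPM (0.77 ± 0.07). PPARA itself was not called (0.02 ± 0.06).

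Cell division genes fell almost without exception. Of 32 genes of G2 and mitosis 31 were lower and none higher (median -0.64), with 11 lower by more than 1.5-fold; ECT2, named after its value was seen, was the one not called. PLK1, a kinase that drives entry into and passage through mitosis, was at 352, 338 and 353 CPM in vehicle and at 181, 177 and 172 CPM at 500 µg/mL (-0.97 ± 0.05, adjusted p = 1.50e-23). MKI67, the proliferation marker Ki-67, went from 661, 598 and 623 CPM to 340, 311 and 329 CPM (-0.94 ± 0.09), and KIF20A, a kinesin of the central spindle, from 86.2, 86.6 and 85.4 CPM to 42.2, 46.6 and 43.3 CPM. The groups did not overlap for any of the 3, nor for 31 of the 32 members in all, beside 49.8% of all tested genes. Summed over the list, vehicle held 4459, 4250 and 4253 CPM and 500 µg/mL held 2660, 2588 and 2647 CPM. The sum was 3899 to 3982 CPM at 100 µg/mL and 3999 to 4048 CPM at 20 µg/mL, so most of the fall lay between 100 and 500 µg/mL.

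The promoter window of PLK1 (chr16:23678639-23678888, GRCh38.p14, plus strand) is shown as that of the member with the largest fall. Capitals mark its match to TTTGAA or TTCGAA, the cell cycle homology region through which the DREAM complex represses such genes, read on either strand.

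PLK1: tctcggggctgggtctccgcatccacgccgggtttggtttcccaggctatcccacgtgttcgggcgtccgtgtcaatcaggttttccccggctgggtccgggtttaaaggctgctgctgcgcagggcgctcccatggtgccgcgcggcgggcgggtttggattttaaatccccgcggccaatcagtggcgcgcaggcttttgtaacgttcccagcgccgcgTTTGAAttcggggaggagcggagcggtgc

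One of these letter strings was in 18 of 35 windows of the list (51.4%) and in 14.3% of all windows.

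DNA replication genes fell by smaller amounts: 30 of 32 were lower and none higher (median -0.47). None passed the 1.5-fold test, in which 0.811% of all tested genes were lower. POLE2, a subunit of DNA polymerase epsilon, went from 12.8, 10.9 and 10.4 CPM to 6.72, 6.30 and 6.14 CPM (-0.83 ± 0.11). MCM10 and GINS2, which help start replication forks, fell by 0.67 ± 0.05 and 0.62 ± 0.06 on the log2 scale. POLD1 and RPA3, named after their values were seen, were the 2 not called. G1 regulators were mixed, 7 higher and 13 lower of 29; the CDK inhibitor CDKN2B rose by 1.08 ± 0.12 and E2F8, a repressor of the E2F family, fell by 0.78 ± 0.06. Ribosome biogenesis factors were lower in 19 of 28 and higher in none (median -0.23), with the nucleolar protein NCL going from 2119, 2073 and 1969 CPM to 1386, 1379 and 1451 CPM (-0.55 ± 0.05). MYC, often linked to that group, was not called (0.07 ± 0.06).

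Against these falls, genes of growth factor and ERK signalling rose. Of 22 immediate early genes 17 were higher and none lower (median 0.76), and 9 by more than 1.5-fold. FOS was at 0.678, 0.406 and 0.386 CPM in vehicle and at 2.56, 2.5 and 2.62 CPM at 500 µg/mL (2.36 ± 0.25). EGR1, another ERK-induced factor, rose from 8.42, 9.23 and 9.86 CPM to 30.9, 34.0 and 31.2 CPM (1.81 ± 0.10). Both were well apart from vehicle in every library. Of 20 genes for EGFR ligands and the feedback on MAPK signalling 15 were higher and 1 lower (median 0.34): the ligand HBEGF went from 2.10, 1.71 and 1.63 CPM to 5.40, 6.84 and 6.49 CPM (1.77 ± 0.17), the ERK phosphatase DUSP6 rose by 1.21 ± 0.08 and the receptor EGFR by 0.65 ± 0.07. NF-kB targets and chemokines were higher in 9 and lower in 2 of 15, with CCL20 rising by 1.3 ± 0.13, while NFKB1 was not called (-0.09 ± 0.05).

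**Figure D3:**
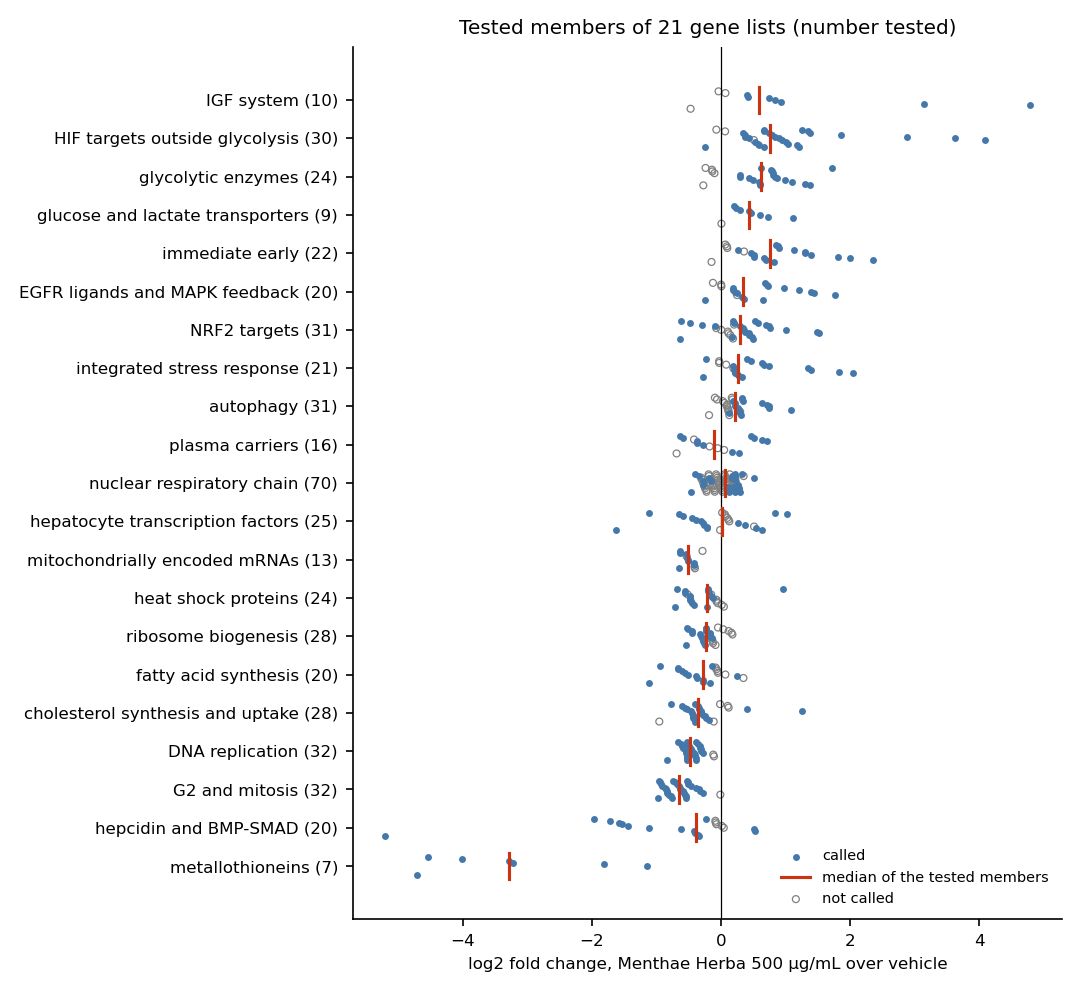
Log2 fold change of 500 µg/mL over vehicle (horizontal axis) for the tested members of 21 gene lists, each point a gene, filled where called, with the number tested in brackets and the list's median as a red bar. Metallothioneins lie furthest to the left with a median of -3.29, and HIF targets and immediate early genes furthest to the right with medians of 0.76.

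Among genes that name liver identity, CEBPA, a factor that restrains division in hepatocytes, was at 118, 150 and 152 CPM in vehicle and at 70.5, 64.3 and 58.2 CPM at 500 µg/mL. The groups did not overlap although vehicle replicate 1 was low (-1.12 ± 0.11), and the fall against 20 µg/mL was larger (-1.42), since the means at 20 and 100 µg/mL were 172 ± 4.51 and 160 ± 2.85 CPM. CEBPD, a related factor of the acute phase, rose by 0.84 ± 0.13. Of 25 hepatocyte transcription factors 6 were higher and 11 lower (median 0.02), beside 19.8% and 20% of all tested genes. Albumin (ALB) was at 7453, 6874 and 6851 CPM in vehicle and at 7908, 8015 and 7886 CPM with extract, a small rise (0.17 ± 0.05).

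Secreted liver proteins moved in both directions. AHSG, the serum glycoprotein fetuin-A, rose from 1885, 2049 and 2032 CPM to 3247, 3386 and 3112 CPM (0.71 ± 0.05). Haptoglobin (HP), which binds free hemoglobin, fell from 164, 171 and 167 CPM to 108, 108 and 111 CPM (-0.62 ± 0.05). KNG1, the kininogen of the contact system, went from 6.46, 6.02 and 5.83 CPM to 2.04, 1.5 and 1.72 CPM (-1.79 ± 0.13). Among coagulation genes, 8 were higher and 4 lower of 24, and the plasminogen activator PLAU rose from 1.89, 1.91 and 2.06 CPM to 4.81, 5.92 and 6.84 CPM (1.58 ± 0.17). Complement genes were higher in 4 and lower in 6 of 21 and acute phase proteins in 4 and 6 of 16. Plasma carriers were higher in 6 and lower in 5 of 16 and apolipoproteins in 6 and 4 of 22. The median was 0.09 for the coagulation genes and lay between -0.17 and 0.00 for the other lists of this paragraph. Over all tested genes 19.8% were higher and 20% lower, so calls in both directions were not particular to these lists.

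Matrix genes were higher in 13 and lower in 3 of 27 (median 0.24), and those that rose by more than 1.5-fold included enzymes that modify collagen. PLOD2, a lysyl hydroxylase, was at 134, 106 and 116 CPM in vehicle and at 278, 288 and 303 CPM at 500 µg/mL (1.29 ± 0.08). LOX, which cross-links collagen, rose from 16.9, 15.0 and 18.6 CPM to 42.2, 43.7 and 42.6 CPM (1.35 ± 0.19), and P4HA2, a prolyl hydroxylase subunit, by 0.94 ± 0.06. Several of these enzymes are known HIF targets as well. CEMIP, which takes part in hyaluronan breakdown, was among the largest rises of all, from 44.5, 49.2 and 47.5 CPM to 196, 198 and 199 CPM (4.20-fold). CHST15, which adds sulfate to chondroitin, rose from 14.2, 12.97 and 14.7 CPM to 62.5, 61.0 and 65.4 CPM (4.52-fold).

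The remaining large changes included membrane and cytoskeletal genes. AQP3, a channel for water and glycerol, rose from 3.17, 3.05 and 2.79 CPM to 11.4, 11.9 and 12.8 CPM (4.00-fold). TUBB1, a beta tubulin best known from platelets, rose from 3.21, 2.28 and 2.10 CPM to 12.02, 13.3 and 11.7 CPM (4.88-fold), while the 14 tubulin genes as a list split 7 higher and 7 lower. TJP3, the tight junction protein ZO-3, fell from 11.5, 11.7 and 12.01 CPM to 3.36, 2.54 and 3.05 CPM (-1.97 ± 0.10, or 3.93-fold). RBM24, an RNA-binding protein, SPAG4, a protein of the nuclear envelope, and TCP11L2 rose by 1.98 ± 0.13, 1.88 ± 0.21 and 1.90 ± 0.19.

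**Figure D4:**
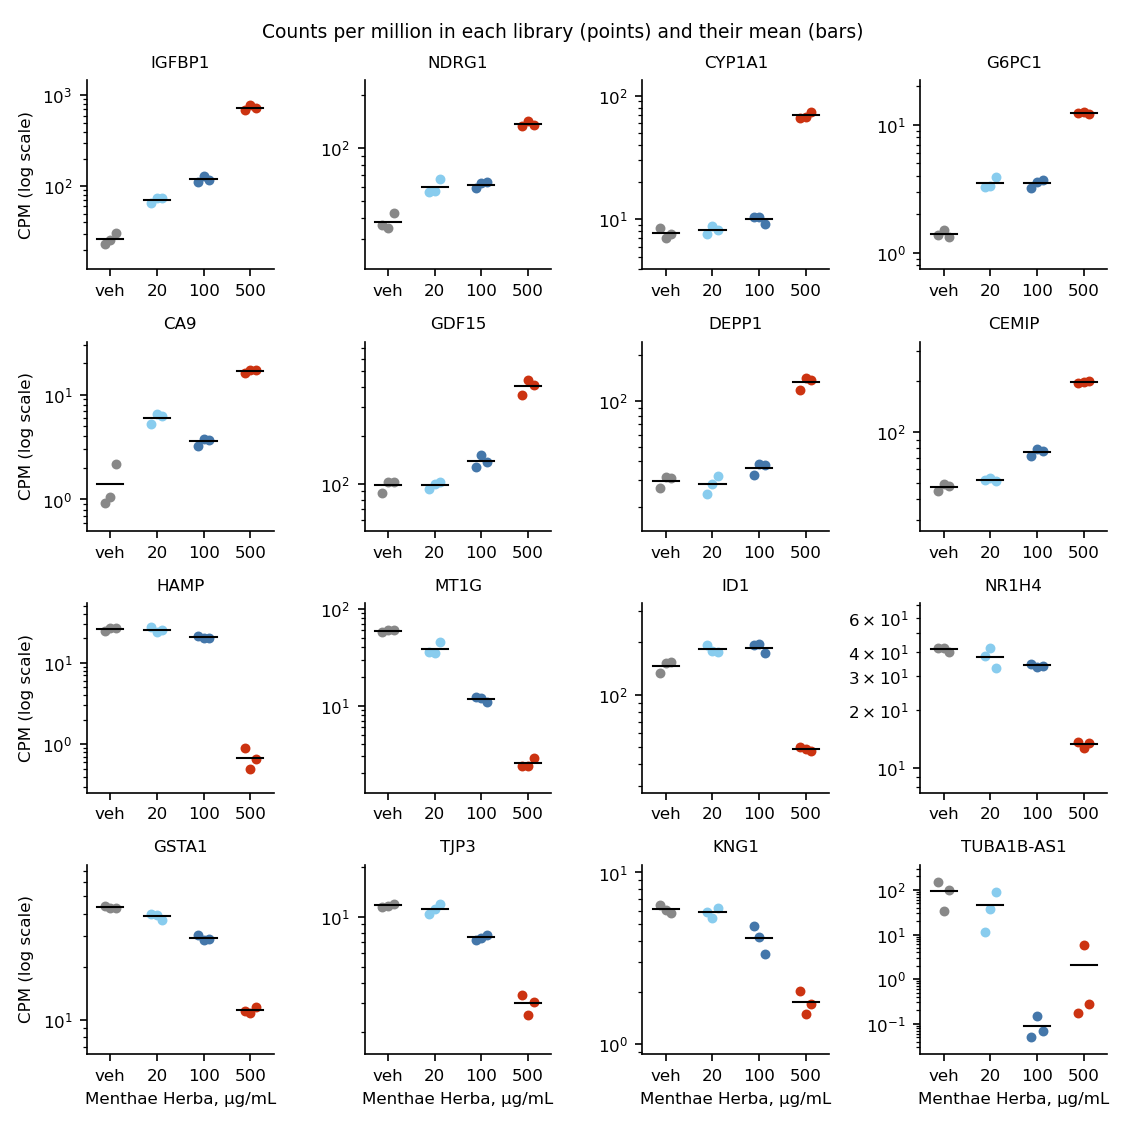
CPM on a log axis in each vehicle library and each library at 20, 100 and 500 µg/mL of Menthae Herba for 16 of the named genes, points for libraries and bars for means, with values under 0.05 CPM drawn at 0.05. At 500 µg/mL the libraries of 15 genes lie close together and away from vehicle, while those of TUBA1B-AS1 spread from 0.173 to 5.76 CPM.

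Of the groups with smaller changes, autophagy genes were higher in 17 of 31 and lower in none (median 0.21), with GABARAPL1, which coats autophagosomes, going from 6.88, 6.14 and 7.5 CPM to 14.1, 13.8 and 15.5 CPM (1.08 ± 0.08). SQSTM1, the cargo receptor p62, rose by 0.75 ± 0.05. Lysosomal genes were higher in 15 and lower in 3 of 32: the cholesterol exporter NPC1 rose by 0.87 ± 0.05 while TFEB, a master factor of lysosomal genes, fell by 0.74 ± 0.08 on the log2 scale. Proteasome genes were higher in 13 and lower in 5 of 37 (median 0.10). YAP and actin targets split into 10 higher and 9 lower of 26. Urea cycle and glutamine genes were higher in 11 and lower in 5 of 19, led by arginase 2, ARG2 (0.87 ± 0.05). WNT and beta-catenin targets, which HepG2 expresses strongly, were higher in 4 and lower in 7 of 19, and the feedback inhibitors NKD1 and NOTUM fell by 0.59 ± 0.04 and 0.53 ± 0.06 on the log2 scale. Clock genes were higher in 4 and lower in 9 of 17, with BHLHE40, a repressor that hypoxia also induces, rising by 1.17 ± 0.10 and DBP, an output factor, falling by 1.01 ± 0.14. Selenoproteins (6 higher, 5 lower of 21) and interferon-stimulated genes (5 higher, 2 lower of 20) had medians near 0. The thyroid hormone deiodinase DIO1 went from 25.5, 24.2 and 26.3 CPM to 13.8, 12.3 and 11.7 CPM (-1.002 ± 0.07). For every list of this paragraph the background is 19.8% of all tested genes higher and 20% lower.

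Calls for mitochondrial and ribosomal lists depended on the fit. Of 13 mRNAs encoded by mitochondrial DNA 9 were lower and none higher (median -0.51), but with only the 6 libraries in the fit 3 were called. MT-ND1, a subunit of complex I, was at 12980, 8453 and 10340 CPM in vehicle and at 5054, 9113 and 6122 CPM with extract, so its groups overlapped. Its log2 fold change of -0.65 was not called without vehicle replicate 1 (-0.47, adjusted p = 0.075), without extract replicate 1 (-0.48, adjusted p = 0.072) or with only the 6 libraries. The share of counts from mitochondrial genes, 10.4%, 13.89% and 12.06% with extract, also overlapped that of vehicle. Of 85 cytosolic ribosomal protein genes 11 were higher and 5 lower (median 0.02), and of 70 nuclear genes of the respiratory chain 14 were higher and 7 lower (median 0.06). With only the 6 libraries in the fit, 43 of the ribosomal and 39 of the respiratory chain genes were called. Over all 16644 tested genes, the main fit called 39.8% (19.8% higher and 20% lower). The fit with only the 6 libraries called 6539 of them.

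The comparison with 20 µg/mL of the same extract uses no vehicle library. It called 5346 genes (32.1%), 2711 higher (16.3%) and 2635 lower (15.8%) at 500 µg/mL. The G2 and mitosis list was lower in 31 of 32, the metallothioneins in 7 of 7 (median -2.74) and the hepcidin and BMP list in 13 of 20, with 2 higher. HIF targets were higher in 22 of 30 and lower in 1 (median 0.58), immediate early genes higher in 15 of 22 and lower in none, and cholesterol genes lower in 21 of 28. Of the 13 mitochondrial mRNAs 3 were lower. Both comparisons share the 500 µg/mL libraries, so these counts are set side by side and are not independent of those above.

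Against vehicle, 100 µg/mL gave 2337 called genes (14%; 1165 higher, 7%, and 1172 lower, 7.04%) and 20 µg/mL gave 1136 (6.83%; 555 higher, 3.33%, and 581 lower, 3.49%). The lower doses leaned on vehicle replicate 1: without it the counts were 1019 and 114. They also leaned on single extract libraries, being 1389 without replicate 2 at 100 µg/mL and 447 without replicate 1 at 20 µg/mL. HIF targets were higher in 18 of 30 at 100 µg/mL and in 13 of 30 at 20 µg/mL, with none lower. Glycolytic enzymes were higher in 17 of 24 and 13 of 24. The G2 and mitosis list was lower in 11 of 32 and 4 of 32, and the BMP list showed no majority at either dose. All 3 doses were compared with the same vehicle libraries.

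Saposhnikoviae Radix, the root of another medicinal plant, was given at the same 500 µg/mL and differed from Menthae Herba in 5337 genes (32.1%), of which 2660 (16%) were higher and 2677 (16.1%) lower with Menthae Herba. IGFBP1 was at 44.2, 51.2 and 50.1 CPM with Saposhnikoviae Radix, far below the Menthae Herba libraries (log2 difference 3.91 ± 0.23). HAMP was at 18.7, 13.2 and 14.5 CPM there, and Menthae Herba was lower by a log2 difference of -4.46 ± 0.22. MT1G was at 28.7, 31.7 and 21.6 CPM, again above Menthae Herba (-3.41 ± 0.21). For MT2A, with 105, 83.6 and 76.1 CPM, the difference was smaller (-0.56 ± 0.17). For these genes the Saposhnikoviae Radix libraries also lay apart from vehicle, on the same side as Menthae Herba. Means in vehicle and with Saposhnikoviae Radix were 26.6 and 48.5 CPM for IGFBP1 and 26.0 and 15.5 CPM for HAMP. They were 59.5 and 27.3 CPM for MT1G and 210 and 88.3 CPM for MT2A. Saposhnikoviae Radix against vehicle was not tested.

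Among the leading rises CYP1A1 was the exception, being no higher with Menthae Herba than with Saposhnikoviae Radix. It was at 75.5, 83.1 and 81.5 CPM with Saposhnikoviae Radix, above all 3 Menthae Herba libraries by a small margin (Menthae Herba minus Saposhnikoviae Radix -0.20 ± 0.06, adjusted p = 0.00367). ALDH3A1 was also lower with Menthae Herba (-0.73), while NQO1 was slightly higher (0.18) and AKR1B10 higher (0.65). SLC7A11, at 41.2, 41.7 and 43.5 CPM with Saposhnikoviae Radix, was higher with Menthae Herba by 1.52. GSTA1 (44.1 ± 4.07 CPM), NR1H4 (39.9 ± 1.66 CPM), CEBPA (168 ± 23.2 CPM) and ID1 (140 ± 11.8 CPM) with Saposhnikoviae Radix all exceeded their Menthae Herba levels, by log2 differences of -1.96 ± 0.11, -1.58 ± 0.06, -1.39 ± 0.11 and -1.51 ± 0.08 for Menthae Herba over Saposhnikoviae Radix. The G2 and mitosis list was lower with Menthae Herba in 31 of 32 genes (median -0.60) and HIF targets higher in 25 of 30, none lower (median 0.73). None of the 13 mitochondrial mRNAs was called.

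Markers of other cell types were mostly absent or low. Of 10 leukocyte markers 5 were tested. PTPRC, a general leukocyte marker, and CD3E, a T cell marker, were at 0 in all 6 libraries. The list's sum was 974 to 1020 CPM in vehicle and 2549 to 2675 CPM with extract. Nearly all of it was LYZ (lysozyme), at 921, 969 and 923 CPM in vehicle and 2500, 2617 and 2625 CPM at 500 µg/mL (1.46 ± 0.06). CD14 fell by 0.78 ± 0.20 on the log2 scale. Of 10 fibroblast markers 2 were tested, with PDGFRB higher (0.99 ± 0.09) and COL1A1 lower (-0.85 ± 0.27, a call lost without vehicle replicate 2, adjusted p = 0.0501); COL1A2, DCN and LUM were at 0, and the sum was 13.1 to 14.7 CPM in vehicle and 25.0 to 25.7 CPM with extract. Of 10 endothelial markers 4 were tested, with sums of 5.36 to 6.63 CPM and 6.93 to 7.75 CPM, VWF and TIE1 higher by 1.09 ± 0.27 and 1.07 ± 0.22, CDH5 (named after its value was seen) lower at -1.71, and KDR, TEK and ERG at 0. Of 12 markers of other epithelia and neural cells 1 was tested and none was called.

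Some of the 15 largest falls rest on scattered libraries. TUBA1B-AS1 was at 154, 33.0 and 99.8 CPM in vehicle and at 0.173, 5.76 and 0.274 CPM at 500 µg/mL (adjusted p = 0.0204), and at 0.197, 45.8 and 0 CPM with Saposhnikoviae Radix. Its libraries differed several-fold within each group, and it was not called in the test against 1.5-fold (adjusted p = 0.183). Its call against no change was lost without vehicle replicate 1 (-5.09, adjusted p = 0.0573) and without extract replicate 1 or 3 (adjusted p = 0.0789 and 0.0729). CERS6-AS1 (5.42, 7.64 and 3.43 CPM; 0.104, 0 and 0.391 CPM) and CFAP298-TCP10L (6.38, 4.8 and 3.94 CPM; 0, 1.17 and 2.39 CPM) were scattered too. The call of CFAP298-TCP10L (adjusted p = 0.048) was lost in 8 of the 12 alternative analyses, DESeq2 (adjusted p = 0.0826) and leaving out vehicle replicate 1 (-1.92, adjusted p = 0.13) among them. CERS6-AS1 and TUBA1B-AS1 are antisense to other genes, and the strand setting of the counting is not given in the sources used here. Whether their reads came from their partners is therefore uncertain. For CFAP298-TCP10L, a readthrough transcript, how reads were divided between it and its partners is uncertain too.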

How the data were processed

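The table deposited by the authors holds estimated counts per gene for 60 libraries, made with RSEM per the submitters' processing notes. Per the submitters' processing notes, FastQC 0.11.9, Trim Galore 0.6.5, STAR 2.7.3a and RSEM 1.3.3 were used with GRCh38; annotation release and strand setting: not given in the sources used here. Counts were rounded; 71.9% of nonzero values were already whole, and genes without a symbol held 0.0472% of counts. Genes were kept by filterByExpr (minimum count 10), scaled by TMM and fitted with edgeR 4.0.16 (quasi-likelihood, robust) on 57 libraries in 19 groups of 3 (common dispersion 0.00345). The 3 Soshiho-tang libraries, without replicates, were left out. Adjusted p-values are Benjamini-Hochberg over 16644 genes, called under 0.05; the 1.5-fold test is glmTreat. The SE is the absolute log2 fold change over the square root of F. Libraries of the series held 20446542 to 32386486 counts, CPM use these totals times the TMM factors, and 3 counts correspond to about 0.1 CPM. The fit was tested on simulated data.

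The members, the 62 gene lists and the tests were chosen with earlier results of these data known. Named genes were the 15 largest rises and 15 largest falls among called genes with a symbol, a group mean of 5 CPM or more and no overlap between groups, or were among the up to 4 called members of largest change in a list (mean of at least 1 CPM), or were set by name for their role. Positions are from GENCODE v29 and promoter windows from RefSeq (GRCh38.p14, 250 bases before the start). Alternatives were DESeq2 1.42.0, its size factors, no filter, only the 6 libraries, a replicate block and leaving out each library. A few named results are left out of the text.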

Additional observations from a re-analysis of the deposited data

How the results depend on the processing

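The 6623 genes called at 500 µg/mL against vehicle became 6312 with DESeq2, 6636 with its size factors, 6259 without a filter and 6539 with only the 6 libraries compared. Leaving out 1 library at a time gave 5703 to 6152, the lowest without vehicle replicate 1. The count beyond 1.5-fold ranged from 406 to 491 in the same way and was 602 without a filter. For 500 against 20 µg/mL, leaving out 1 library gave 4485 to 4990 calls, and against Saposhnikoviae Radix 4566 to 4869. The lower doses were less stable: leaving out 1 library gave 1019 to 2216 calls for 100 µg/mL and 114 to 1200 for 20 µg/mL, and with only the 6 libraries compared 20 µg/mL gave 230. The causes were not tested.

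Of the 254 genes named by the rule, 233 kept their direction and their side of the threshold under all 12 alternatives. SREBF2, not called at -0.01, was between -0.057 without vehicle replicate 1 and 0.015 without vehicle replicate 2, and changed sign to 0.0045 without Menthae Herba 500 replicate 3 and 0.0098 without vehicle replicate 3. PPARA, not called at 0.02, reached 0.064 without Menthae Herba 500 replicate 2 and went to -0.0014 without Menthae Herba 500 replicate 1 and -0.010 without vehicle replicate 2. List calls were counted again only under the alternatives that keep every library of the comparison, and not with a library left out. There they moved by over 1.5 times in 3 lists. The 16 ribosomal protein calls became 36 without a filter, the 21 of the nuclear respiratory chain 37, and the 9 mitochondrial mRNAs 3 with only the 6 libraries.

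The replicate number was also fitted as a block. Libraries with the same number did not deviate together (correlations -0.229, -0.024 and -0.252 over 10719 genes), so the numbers were not taken as pairs. With the replicate block, 6655 genes were called at 500 µg/mL and 5426 against 20 µg/mL; the block with only the 6 libraries, chosen after seeing the data, gave 6259, and 730 for 20 µg/mL against vehicle.

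Depth limits MT1M and PPFIA4, which had about 1 to 3 reads a library in one group, so no folds are given for them; IGFBP3 was little above that in vehicle.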
